A study of Mus musculus with 2 samples.

Results

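The Sox, T-box, Pax and Six-family genes make up 4 families of developmental transcription factors. They were taken as protein-coding genes of GENCODE release M21 whose symbol is a family prefix followed by a number, as in Sox9, Tbx15, Pax3 and Six4. The set held 45 genes (19 Sox, 12 Tbx, 9 Pax and 5 Six-family genes) of 21829 protein-coding genes on the 21 chromosomes. DNase I cuts DNA that is free of nucleosomes, and DNase-seq maps these accessible sites as peaks. Peaks had been called in mouse adipocytes derived in culture from 3T3-L1, an immortal preadipocyte line grown from 1 clone, at day 8 of differentiation. The data were 2 libraries of this 1 group, numbered as biological replicates 1 and 2, with the same donor record. There was no undifferentiated, treated or mutant group, and the differentiation agents and separate culture dates were not given. The strain was labelled C57BL/6J, although 3T3-L1 is generally described as coming from Swiss mice, so no strain is assumed.

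Replicate 1 held 133695 peaks and replicate 2 held 216556, and their read depth was not given in the sources used here. Each peak carries a whole-number signal value between 1 and 150, given by the authors, which ranks peaks within 1 list only. A percentile below is the share of that list's peaks at or below the value. All 7 adipocyte markers examined (Pparg, Cebpa, Adipoq, Fabp4, Plin1, Lpl and Cd36) had a promoter peak in both replicates, as did 2 of 3 preadipocyte markers, Pdgfra and Thy1. None of 3 muscle, 2 endothelial, 2 epithelial, 1 blood and 1 neuronal markers did. In a bulk culture, a site open in few cells and a site weakly open in many cannot be told apart.

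Sox proteins bind the minor groove of DNA through an HMG box and bend it. T-box proteins bind through the domain that names them, Pax proteins through a paired domain, and Six-family proteins through a domain of their own and a homeodomain, often with Eya proteins as coactivators. Most members act in embryonic patterning and are active in some lineages and silent in others. In fat, mouse Sox9 is known to hold preadipocytes undifferentiated, and Tbx15 marks and shapes particular adipose depots.

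The strongest distal peak of the member richest in distal peaks is shown for the Sox, Tbx and Pax families, since these sites carry the distal results below. Here and below, the strongest site is the one with the highest replicate 1 value. Each is the central 150 bases of the region on the plus strand of GRCm38. Capitals mark AACAATG (SOX) or GGAATG (TEAD) on either strand. The Sox5 site is chr6:144286326-144286475 in an intron of Sox5, and the Tbx15 site is chr3:99300966-99301115 in an intron of Tbx15. The Pax6 site, chr2:105616426-105616575, lies between coding genes and within the noncoding gene Pax6os1. Pax2, Pax5 and Pax6 tied in number of distal peaks, and Pax6 is shown because its peak was the strongest of theirs.
Sox5 intron: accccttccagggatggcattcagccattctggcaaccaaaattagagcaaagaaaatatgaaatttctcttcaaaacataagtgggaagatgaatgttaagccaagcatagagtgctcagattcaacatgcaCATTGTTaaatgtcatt
Tbx15 intron: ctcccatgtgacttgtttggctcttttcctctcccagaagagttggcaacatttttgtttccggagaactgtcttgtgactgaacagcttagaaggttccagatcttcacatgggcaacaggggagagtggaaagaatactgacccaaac
Pax6 upstream: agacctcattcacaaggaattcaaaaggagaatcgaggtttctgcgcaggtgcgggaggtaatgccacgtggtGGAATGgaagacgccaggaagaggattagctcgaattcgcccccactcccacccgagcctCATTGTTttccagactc

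The contrast between members with and without an accessible promoter is shown by 1 window per family. Each is the 250 bases before a RefSeq start on the gene's strand (GRCm38.p6, minus strand for all 4 genes), with CG dinucleotides in capitals. The windows are chr2:152398047-152398296 for Sox12, chr9:87731261-87731510 for Tbx18, chr17:85688255-85688504 for Six2 and chr4:139832969-139833218 for Pax7.
Sox12, peaks in both replicates: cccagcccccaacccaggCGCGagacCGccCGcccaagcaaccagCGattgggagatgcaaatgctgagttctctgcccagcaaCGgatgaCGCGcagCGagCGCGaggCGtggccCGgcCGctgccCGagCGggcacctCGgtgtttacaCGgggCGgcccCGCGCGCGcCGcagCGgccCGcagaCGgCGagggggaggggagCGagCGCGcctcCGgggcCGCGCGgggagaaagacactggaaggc
Tbx18, peaks in both replicates: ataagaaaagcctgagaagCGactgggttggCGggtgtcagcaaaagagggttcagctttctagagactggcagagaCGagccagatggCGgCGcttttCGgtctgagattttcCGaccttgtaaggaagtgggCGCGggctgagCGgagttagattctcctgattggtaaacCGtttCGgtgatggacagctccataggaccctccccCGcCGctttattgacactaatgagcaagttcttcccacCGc
Six2, no peak: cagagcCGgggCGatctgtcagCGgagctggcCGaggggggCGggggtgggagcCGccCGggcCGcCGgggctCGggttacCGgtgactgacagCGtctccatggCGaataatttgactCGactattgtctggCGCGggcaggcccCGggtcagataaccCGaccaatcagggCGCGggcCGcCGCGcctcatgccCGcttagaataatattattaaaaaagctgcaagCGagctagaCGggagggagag
Pax7, no peak: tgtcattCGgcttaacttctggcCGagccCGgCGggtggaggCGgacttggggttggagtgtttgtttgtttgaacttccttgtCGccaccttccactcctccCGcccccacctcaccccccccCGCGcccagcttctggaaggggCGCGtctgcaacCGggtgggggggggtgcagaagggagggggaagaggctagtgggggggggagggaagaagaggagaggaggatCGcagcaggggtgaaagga
Sox12 held 35 CG dinucleotides, a number that 2.97% of all 32851 windows of this length reached. Six2 held 26 without a peak, reached by 9.59% of windows, while Tbx18 held 15 with strong peaks, reached by 27.3%. Pax7 held 13, reached by 31.5%. CG number did not separate these 4 windows by their peaks. They are chosen examples and cannot show how CG content goes with peaks in general, which is counted over all members and genes below. RefSeq promoter windows were matched for 33 of the 45 members.

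A promoter was called accessible where both replicates had a peak touching the 1000 bp on either side of a start site of the gene. This held for 12 of the 45 members, or 26.7%, against 55.3% of all protein-coding genes. Within 2500 bp of a start site it held for 21, or 46.7%, against 61%, so the gap to all genes was smaller with the wider window. Each replicate alone gave 14 members, or 31.1% ± 0 (SD, n = 2), against 57.6% ± 2.80 (SD, n = 2) of all genes. The accessible promoters were those of Sox4, Sox9, Sox11, Sox12, Tbx2, Tbx3, Tbx15, Tbx18, Pax3, Pax5, Six4 and Six5. By family these were 4 of 19 Sox genes (21.1%), 4 of 12 Tbx genes (33.3%), 2 of 9 Pax genes (22.2%) and 2 of 5 Six-family genes (40%). A peak in 1 replicate only was found at 4 members, or 8.89%, against 4.49% of all genes. The remaining 29 had no promoter peak in either list. With a single group there was no contrast to test, and all comparisons with other genes are descriptions.

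Within the Sox family, accessible promoters lay mostly in 1 paralog group. All 3 SoxC genes (Sox4, Sox11 and Sox12), transcription activators of progenitor cells, were accessible, as was 1 of the 3 SoxE genes, Sox9. None of the 3 SoxB1 genes (Sox1, Sox2 and Sox3), known from neural and pluripotent cells, had a promoter peak. The same held for the SoxB2 genes Sox14 and Sox21 and for the SoxF genes Sox7, Sox17 and Sox18, regulators of endothelium. It held also for Sox6, Sox13, Sox8, Sox10, the neural crest factor, Sox15 and Sox30, a gene of sperm development.

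Sox4 had the highest Sox promoter value. Its strongest region, chr13:28953696-28953865, centred at −68 bp from the start site (negative distances are upstream), had values of 113 in replicate 1 and 139 in replicate 2, percentiles 96.8 and 96.9. Sox9, master regulator of cartilage, had 3 promoter peaks in each replicate. The strongest, chr11:112782076-112782225 at −73 bp, had values of 103 and 138, percentiles 93.9 and 96.5. Both sites lay above the 90th percentile in each replicate, as did the strongest promoter peak of 57.6% and 73.6% of all accessible genes. Sox12 had values of 100 and 123 at chr2:152398116-152398285, inside the window printed above. Sox11 was the weakest accessible promoter of the set. Its region at chr12:27342716-27342925 had values of 18 and 46, percentiles 4.60 and 18.9, and a second replicate 2 peak reached 56. Sox5, a SoxD protein without a transactivation domain that works beside Sox9 in cartilage, had promoter peaks in replicate 2 only. They lay at the most upstream group of its start sites used here, 144209452 to 144209568, which is inside the annotated gene. The peaks were chr6:144209136-144209285 with a value of 49 and chr6:144209516-144209665 with 47, percentiles 23.3 and 20.3.

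Among T-box genes, the repressors Tbx2 and Tbx3 were accessible, and their paralogs Tbx4 and Tbx5, known from hindlimb and from forelimb and heart, were not. Tbx15 and Tbx18, the latter a factor of epicardium and ureter mesenchyme, were accessible, and their paralog Tbx22, a palate gene, was not. Tbx18 had the highest promoter values of the set, 118 and 145 at chr9:87731276-87731425, −91 bp, percentiles 98.0 and 98.9. Tbx15 reached 115 and 145 at chr3:99253216-99253365, and its promoter peaks numbered 5 and 6 in the replicates. In each replicate 4 of these lay around the start site at 99253760, the others lay at an internal start, 99296510, and none lay within 1000 bp of the outermost start at 99240381. Tbx3 also reached 115, with 143 in replicate 2, at chr5:119670556-119670725, −28 bp. These 3 promoters had the highest percentiles of the set in both lists. Tbx2 was lower, with 41 and 86 at chr11:85832656-85832805 in its exon, percentiles 44.8 and 66.9. Tbx19, a pituitary factor, had 1 weak peak in replicate 1 only, chr1:165159696-165159845, with a value of 16 at percentile 2.51, whose centre lay 1002 bp inside the gene. Tbx6, Tbx10, Tbx20, a heart gene, and Tbx21, the T-bet gene of T cells, had no promoter peak.

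Among Pax genes, Pax3 and Pax5 were accessible. Pax3, which specifies muscle precursors and neural crest, had values of 73 and 130 at its start site, chr1:78197056-78197205, percentiles 79.1 and 93.2. Its paralog Pax7, the marker of muscle satellite cells, had none, and its nearest shared peak lay 25248 bp from a start site. Pax5, a B cell factor, had values of 47 and 98 at chr4:44645276-44645445, in an intron at the internal start site 44645723. No peak lay within 1000 bp of its 3 outermost start sites, 44710408 to 44710487. Pax2, a kidney factor, had 1 peak in replicate 2 only, chr19:44755076-44755225, with a value of 42 at −894 bp, percentile 13.5. Pax6, the eye factor, had 1 in replicate 1 only, chr2:105679136-105679285, with a value of 19 at percentile 5.92. Both single-replicate peaks were weak. Pax1, Pax9, Pax8 and Pax4 had no promoter peak.

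Among Six-family genes, Six4 and Six5 were accessible. Six4 acts with Eya proteins in muscle precursors. Six5 had the highest value of the family, 110 and 139 at chr7:19094096-19094245, −423 bp, percentiles 96.1 and 96.9. Six4 had 80 and 131 at its start site, chr12:73113376-73113545, percentiles 83.6 and 93.7. Six2, a nephron progenitor factor, and Six3 and Six6, of eye and forebrain, had no promoter peak.

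**Figure D1:**
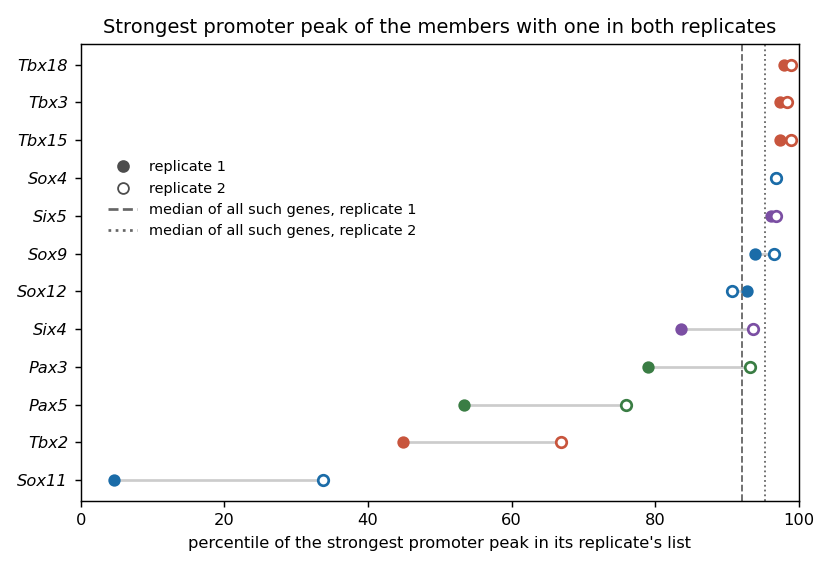
Percentile of the strongest promoter peak, within its own replicate's peak list, of the 12 members with a promoter peak in both replicates (horizontal axis, 0 to 100). Filled points are replicate 1, open points replicate 2, colours are families, and vertical lines are the medians of all accessible genes; Tbx18, Tbx3 and Tbx15 lie at the upper end and Sox11 at the lower end.

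Accessible member promoters ranked near those of other genes. The median percentile of the strongest promoter peak was 93.3 in replicate 1 and 95.1 in replicate 2 over the 12 members, against 92.1 and 95.3 over the 12074 accessible genes. Hotspots, the broader regions of enriched cutting that the authors called, were widest in replicate 1 at Tbx15 (3240 and 2984 bp) and Tbx3 (3015 and 3925 bp). At Sox4 they measured 1082 bp in replicate 1 and 5094 bp in replicate 2. Six4 (597 and 2850 bp) and Six5 (1010 and 3185 bp) also differed widely between the libraries. Of the 12 accessible promoters, only that of Tbx15 had its wider hotspot in replicate 1. Tbx2 had the narrowest in both replicates, at 168 and 280 bp.

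Neighbouring paralogs differed. Tbx2 and Tbx4 start 53.9 kb apart on chromosome 11, and Tbx3 and Tbx5 162 kb apart on chromosome 5, and in each pair the first was accessible and the second was not. On chromosome 12, Six4 was accessible, while Six6, 174 kb from it, was not. Six2 and Six3, 67.2 kb apart on chromosome 17, both lacked a promoter peak.

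CpG-rich promoters are accessible in most cell types, so the members were also set beside other genes by group of CpG content. The members had a median of 6.69 CpG per 100 bp around the start site (500 bp on each side), against 4.80 over all genes. Of the 22 members in the 3 highest CpG deciles, 8 were accessible (36.4%), against 83.1% of the 6397 genes in those deciles. Of the 23 members in the lower 7 deciles, 4 were accessible (17.4%), against 43.8% of 15432 genes. This lower group is not a close match, since it ran from 4.42% accessible in decile 1 to 81.2% in decile 7. In decile 4, 0 of 6 members were accessible against 40.9% of genes, and in decile 5, 1 of 2 against 66.6%. In decile 6 these were 2 of 6 against 78.4%, and in decile 7, 1 of 5 against 81.2%. Six2 (12.1 CpG per 100 bp), Sox30 (11.2), Sox2 (9.69) and Sox3 (9.59) were the most CpG-rich members without a promoter peak. Histone marks and RNA were not measured in these files.

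**Figure D2:**
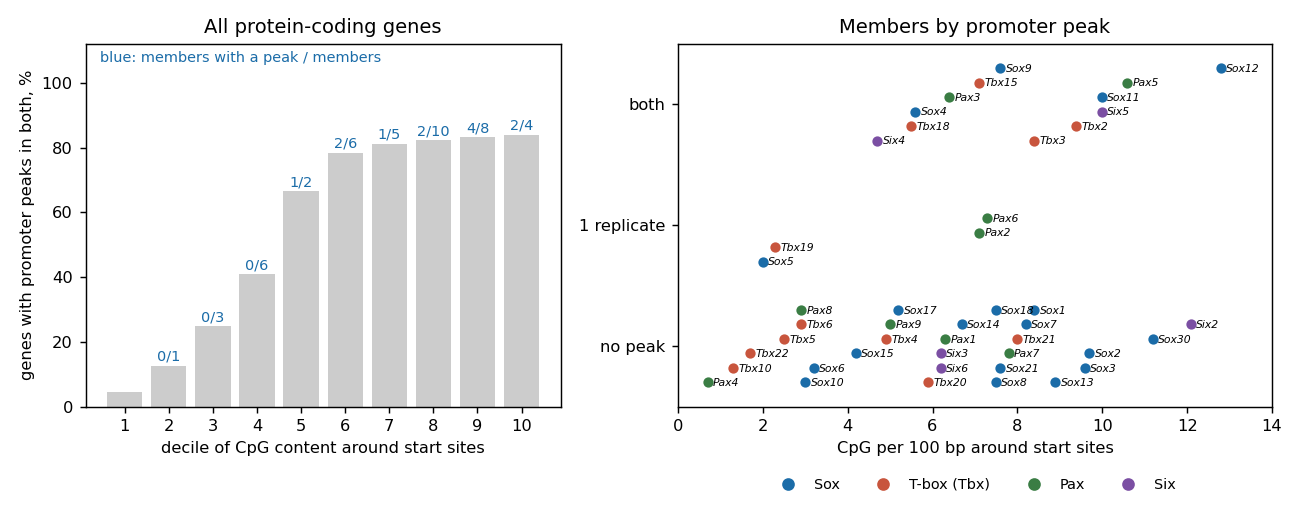
Left, the percentage of all protein-coding genes with a promoter peak in both replicates by decile of CpG content (bars), with accessible members over members written above each bar. Right, each member by CpG per 100 bp and promoter state, coloured by family; Six2, at 12.1 CpG per 100 bp, is the most CpG-rich member without a peak.

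Distal shared peaks were regions called in both replicates and centred over 1000 bp away from any coding gene's start. Each was counted for the gene with the closest start, up to 100 kb. Nearness is a way to count and does not show that a site acts on that gene. The members received 201 of 78174 such peaks. The median was 3 per member, with a range of 0 to 17, against a median of 2 over all genes. Counted in each library alone, the members received 228 peaks in replicate 1 and 355 in replicate 2, a mean of 291.5 ± 89.8 (SD, n = 2). Counts of 10 or more were found at 4 members, or 8.89%, against 9.68% of all genes, so this share was near the background at this limit. No distal shared peak was found at 4 members (Sox1, Tbx10, Tbx20 and Six6), also 8.89%, against 30.3% of all genes. The 12 members with an accessible promoter held 83 of the peaks, a median of 6, and the 29 with no promoter peak held 82, a median of 1. The length of genome open to assignment also differed, with medians of 184 kb and 134 kb. Per 100 kb of it, the 12 held 5.09 peaks and the 29 held 2.44, a smaller gap than that of the medians. The same split over all genes is not given here.

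**Figure D3:**
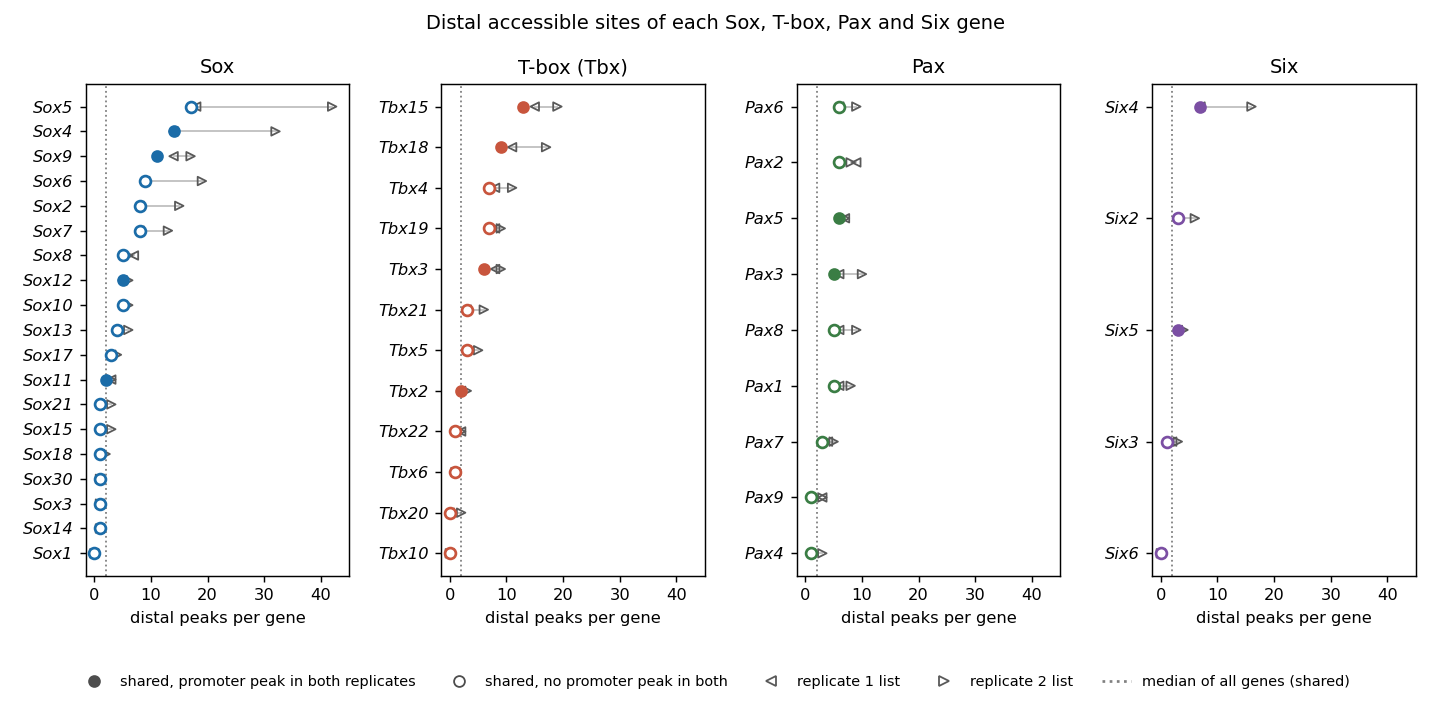
Number of distal peaks assigned to each member (horizontal axis), 1 panel per family, with circles for shared peaks, filled where the promoter was accessible, triangles for each replicate alone, and a dotted line at the all-gene median of 2. Sox5 has the most shared peaks at 17, followed by Sox4 with 14, Tbx15 with 13 and Sox9 with 11.

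In the Sox family, Sox5 had 17 distal shared peaks, 18 in replicate 1 and 42 in replicate 2. All 17 lay within the body of Sox5, and the strongest was the intron site printed above, with values of 108 and 130, percentiles 95.5 and 93.2. Sox4 had 14 shared peaks, 14 and 32 by replicate. The strongest lay at −4.27 kb, chr13:28957896-28958065, with 95 and 136, and a neighbour at chr13:28958596-28958745 had 86 and 130. Sox9 had 11, with 14 and 17 by replicate, on both sides of the gene. Its strongest, chr11:112732536-112732685 at −49.6 kb, lay within the noncoding gene BC006965 and had values of 62 and 100, percentiles 70.2 and 77.3. The Sox9 sites thus ranked lower than those of Sox5 and Sox4. Sox6 had 9, all within its own gene, the strongest at 35 and 74. Sox2 had 8 without a promoter peak, of which 4 lay within the noncoding gene Sox2ot, and the strongest, chr3:34739056-34739205 at +88.7 kb, had 58 and 108. Sox7 also had 8 without one, the strongest at chr14:63962776-63962925, +19.2 kb, with 84 and 126, and a further site in its own exon, chr14:63948656-63948805, with 65 and 114. Sox12 had 5, the strongest at chr2:152406196-152406345, −8.21 kb, with 103 and 137, percentiles 93.9 and 96.1. Sox8 and Sox10 also had 5, Sox13 had 4, Sox17 had 3 and Sox11 had 2. Sox3, Sox14, Sox15, Sox18, Sox21 and Sox30 had 1 each.

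In the T-box family, Tbx15 had 13, with 15 and 19 by replicate. Of these, 10 lay in introns of Tbx15 and 2 in introns of its neighbour Wars2, chr3:99203436-99203605 with values of 75 and 108 and chr3:99234076-99234245 with 72 and 119. The strongest was the intron site printed above, with 84 and 118, and in replicate 2 the second Wars2 site was higher. Tbx18 had 9, the strongest in an intron at chr9:87729896-87730065 with 60 and 119. Tbx4 and Tbx19 had 7 each although neither promoter was accessible in both replicates. The strongest Tbx4 site, chr11:85972476-85972625 at +75.8 kb, had 69 and 106, and that of Tbx19, chr1:165132576-165132725 at +21.1 kb, had 61 and 101. In replicate 2 the Tbx19 site at chr1:165054356-165054525 was higher, with 45 and 108. Tbx3 had 6, the strongest at chr5:119741236-119741385, +70.3 kb, with 79 and 110. Tbx5 and Tbx21 had 3, Tbx2 had 2, both in introns of Bcas3, and Tbx6 and Tbx22 had 1.

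In the Pax family, Pax2, Pax5 and Pax6 had 6 each. The printed Pax6 site at −52.4 kb had values of 84 and 105, percentiles 85.8 and 80.5, and 4 further sites lay in introns of the neighbouring gene Elp4. The 6 Pax5 sites all lay in Pax5 introns, the strongest with 49 and 94 at chr4:44577396-44577545. The strongest Pax2 site, chr19:44692476-44692625, had 50 and 102. Pax3 had 5, of which 4 lay in its introns, the strongest at chr1:78148076-78148245 with 52 and 95. Pax7 had 3, all upstream, the strongest at chr4:139858776-139858945, −25.3 kb, with 65 and 90. Pax1 and Pax8 had 5 each, the strongest with 59 and 108 at Pax1 and with 58 and 110 in a Pax8 intron, where another site reached 113 in replicate 2, and Pax4 and Pax9 had 1.

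In the Six-gene family, Six4 had 7, with 7 and 16 by replicate, the strongest in an exon at chr12:73101336-73101505 with 56 and 103. In replicate 2 the intergenic Six4 site at chr12:73091056-73091245 was higher, with 46 and 105. Six5 had 3 within the short space between its neighbours. The strongest, chr7:19095836-19095985 in an intron at +1.32 kb, had 94 and 139, and another, chr7:19093236-19093425, lay in an exon of Dmpk with 55 and 97. Six2 had 3, and its strongest, chr17:85665056-85665225, had 65 and 121. Six3 had 1.

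The space in which peaks could be assigned differs between genes. The length of genome nearer to a member's start sites than to any other, within 100 kb, had a median of 141 kb, against 46.5 kb over all genes. Per 100 kb of it, the members together held 3.40 distal shared peaks and all genes 4.88. Against the median count of genes in the same decile of length, 20 members lay above and 21 below. The 12 members in the ninth decile had a median of 3 against 6, and the 16 in the tenth had 6 against 7. Six4 with 18.3 peaks per 100 kb, Six5 with 17.4 and Sox12 with 26.0 combined a short length with a high count per 100 kb. So did Tbx6, which had no promoter peak, with 19.8 from 1 peak in 5.06 kb. Part of these counts came from sites just past the 1000 bp promoter limit. Counted beyond 2500 bp, Six4 kept 4 of 7 peaks, Sox12 2 of 5, Six5 0 of 3 and Tbx6 0 of 1. Six6 had a space of 1.05 kb, which left almost no room for a count. Sox1 had 147 kb, yet its nearest shared peak was 105261 bp from its start site. Tbx22 (89021 bp), Tbx20 (68115 bp) and Sox3 (67805 bp) came next.

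**Figure D4:**
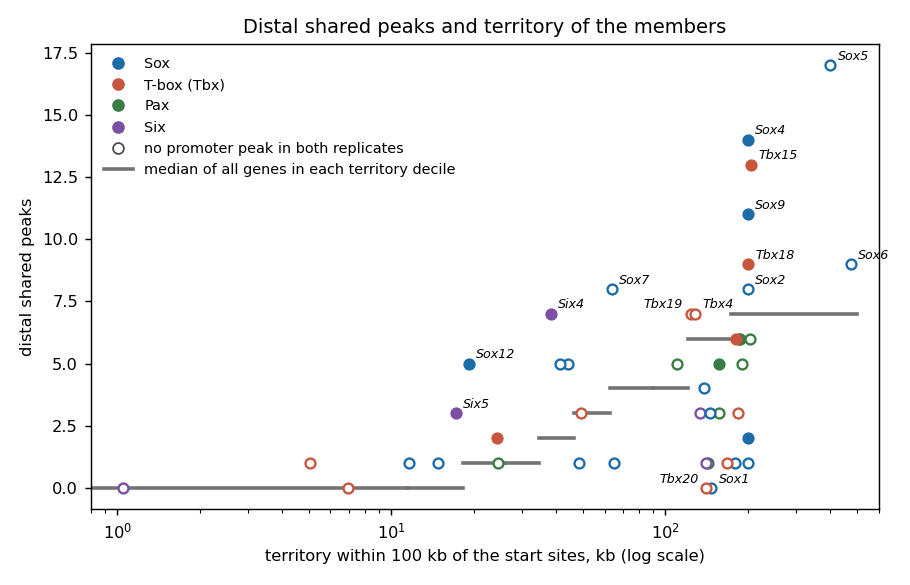
Distal shared peaks of each member (vertical axis) by the length of genome assigned to it, here called its territory, in kb on a log axis; filled points have an accessible promoter and grey bars are the all-gene medians per decile of length. Sox5, Sox4, Tbx15, Sox9, Sox6, Tbx18 and Sox2 lie above the median of 7 of the tenth decile, and Sox1 and Tbx20 lie at 0 in the ninth.

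Members' distal peaks had lower values than those of all genes. Their median value was 35 in replicate 1 and 74 in replicate 2, against 46 and 89 over all assigned distal shared peaks, or percentiles 34.9 and 56.1 against 52.1 and 69.3. Values above the 90th percentile were reached by 1.99% and 3.48%, against 6.72% and 12.8%. Of the members' distal regions in replicate 1, 202 of 228 (88.6%, exact 95% interval 83.7 to 92.4) overlapped a replicate 2 peak, against 92.2% for all genes. Of those in replicate 2, 201 of 355 (56.6%, 51.3 to 61.8) overlapped a replicate 1 peak, against 54.0%. These intervals cover counting error only. The sites lay in exons for 9.45%, introns for 38.3% and between genes for 52.2%, against 5.58%, 51.0% and 43.4% of all. They lay farther out, 32.3% of them 50 to 100 kb from the start site against 18.1%. The length of genome open to assignment limits this distance, and its median was 141 kb for members and 46.5 kb for all genes. Distances were not compared among genes of like length.

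Several members stand in wide gene deserts, so assignment was extended to 1000 kb, a choice made after seeing the data. This added 178 sites, so that 47.0% of the members' 379 sites lay beyond 100 kb, against 18% for all genes. The members with 10 or more sites then numbered 11, or 24.4%, against 12.6% of all genes. Sox9 rose from 11 to 59, with 30 of the 48 added sites upstream and the farthest 824 kb away. The strongest of the added Sox9 sites, chr11:113165296-113165505 at +383 kb, had 84 and 130, above the strongest site within 100 kb. Sox5 rose to 46, Sox4 to 36, Tbx18 to 32 and Sox2 to 22. Sox5 gained the strongest added site, chr6:143640736-143640885, with 115 and 144. Six4, Six5 and Six6 gained none.

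**Figure D5:**
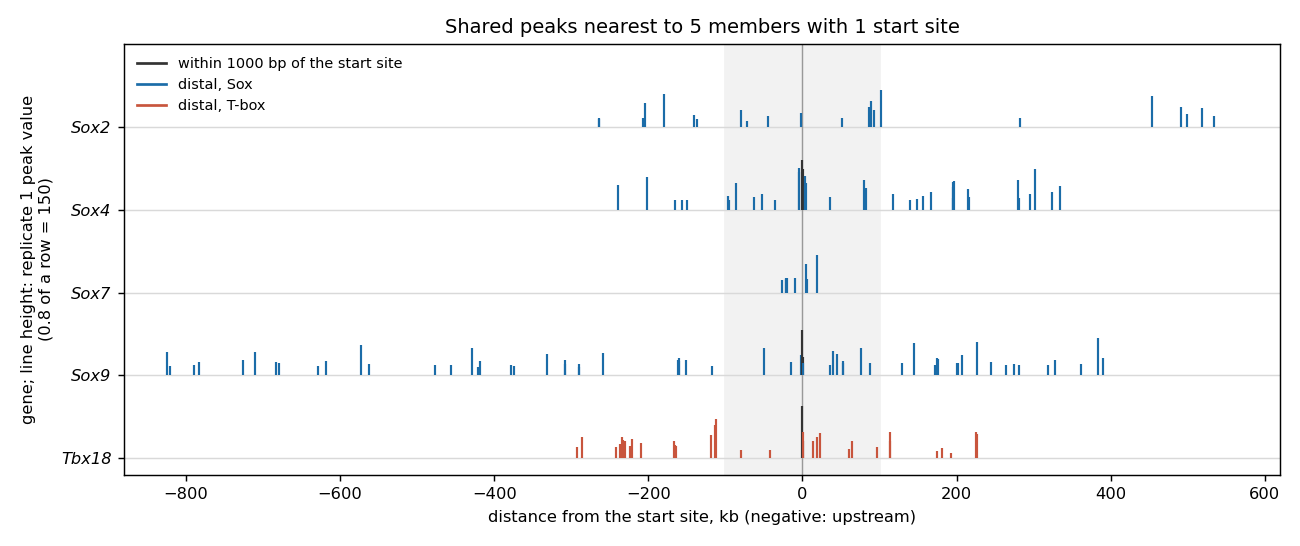
Shared peaks nearest to 5 members that have 1 start site, by distance from it in kb (negative is upstream), with line height for the replicate 1 value and shading for the 100 kb limit. Those of Sox9 reach 824 kb from the start site, while those of Sox7 all lie inside the limit.

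Consensus letters were searched on both strands in the central 150 bp of each distal region. The C/EBP letters TTGCNNAA were in 12.9% of members' regions and 12.7% of all, against 5.67% of flanking windows of all regions. TEAD letters GGAATG were in 12.9% and 10.05%, with 7.82% of flanks, and AP-1 letters TGANTCA in 6.97% and 9.97%, with 4.12%. The glucocorticoid receptor letters ACANNNTGT were in 3.48% and 5.45%, with 4.74%, and the EBF letters, TCCC and GGGA 2 bases apart, in 1.99% and 1.09%, with 0.290%. Of the families' own letters, AACAATG (SOX) was in 6 of 201 regions (2.99%, all 2.39%), TCAGGTT (Six-family) in 4 (1.99%, all 1.79%) and AGGTGTGA (T-box) in 1 (0.498%, all 0.265%). In the flanks of all regions these were in 2.34%, 2.42% and 0.704%, so the Six-family and T-box letters were more frequent in the flanks than in the sites. The TCAGGTT letters occurred in 2 Six4 sites, a Pax7 site and a Tbx18 site. NFI and PPAR-RXR letters were in 0 of 201 and in 0.113% and 0.641% of all. In the flanks of the members' own regions, C/EBP letters were in 7.26%, TEAD in 7.26%, AP-1 in 4.75% and glucocorticoid receptor in 4.19%. EBF, SOX, Six-family and T-box letters were there in 0.279%, 1.96%, 3.35% and 0.838%. G and C made up 50.3% of bases in members' regions and 48.8% in all, against 45.7% and 44.7% in their flanks. Letter shares were not adjusted for this. A match is a run of letters and not a measured binding site.

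The related genes were set beside the members. Of 11 genes, made of the Eya coactivators and Dach corepressors of Six-family proteins, T-box genes with other symbols and Sry, 3 had accessible promoters (27.3%), namely Eya1, Eya3 and Mga. Eya4 had 20 distal shared peaks without a promoter peak, and Eya1 had 9. Among other developmental families, 16 of 39 Hox genes (41%) and 25 of 44 Fox genes (56.8%) were accessible. Their median distal counts were 1 and 3.5, against 3 for the members. The median length of genome assigned to a gene was 11.0 kb for Hox, 98.9 kb for Fox and 141 kb for the members. Per 100 kb of it, Hox genes held 9.81 distal shared peaks, Fox genes 5.80 and the members 3.40. The order by count was therefore not the order by density.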

How the data were processed

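DNase-seq was deposited for 2 libraries of 1 group on mm10. Per the text lists the authors deposited, each region list came from 1 alignment file, so peaks and hotspots were called per library without pooling. Each deposited peak carries a signal value. Its scaling, the caller, the aligner and the depth were not given in the sources used here, so values served only as ranks inside 1 list. Each deposited hotspot carries a −log10 q value, at most 100. Duplicate peak lines (20 and 33) were counted once, and 337 and 603 peaks off the assembled chromosomes were left out.

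Start sites were those of protein-coding transcripts in GENCODE M21, and positions count from 1. Peaks overlapping by at least 1 bp were merged, and a region with a peak of both replicates was shared. A region counted as distal by its centre could still overlap a promoter window, as 3 did. No test was run, since there was no second group, and p-values are therefore absent. Replicates may not be separate differentiations, so spreads between them may be technical. Assignment was tested on simulated data. Work used Python 3.11.15, numpy 2.4.6, pandas 2.3.3, scipy 1.17.1 and matplotlib 3.10.9.

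The members and lists were chosen with earlier results of these data known. Every member is accounted for. Full values are given for the 3 members per family with most distal shared peaks, those with a promoter peak in 1 replicate only, the highest replicate 1 promoter value per family, and Sox9, Tbx15, Pax3 and Pax7. Further genes matching the symbol pattern are not reported here. Alternatives varied the promoter window, start sites, peak strength, overlap, distal limit, assignment limit and replicate.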

Additional observations from a re-analysis of the deposited data

How the results depend on the processing

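The number of members with a promoter peak in both replicates was 12 (26.7%, all genes 55.3%). It stayed between 10 and 14 under 6 alternatives (a 500 bp window, hotspots, the stronger 50% of peaks, basic transcripts and each replicate alone). Among these the share was lowest with the stronger 50% of peaks (22.2%, all genes 50.2%). With each replicate alone, a peak in that replicate was enough, and the share was 31.1%. All genes then had 59.5% without replicate 1 and 55.6% without replicate 2. A 2500 bp window gave 21 (46.7%, all genes 61%), adding Pax2, Pax6, Sox2, Sox5, Sox6, Sox8, Sox10, Sox15 and Tbx6. The stronger 50% of peaks lost Sox11 and Tbx2, and basic transcripts lost Pax5.

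Distal counts depended more on the settings. Assignment within 20 kb gave 80 distal shared peaks, a median of 1 and 1 member with 10 or more (2.22%, all genes 1.93%). The stronger 50% of shared peaks gave 64, a median of 1 and 0 members (all genes 2.88%). Assignment within 50 kb gave 136 peaks and distal beyond 2500 bp gave 173, against 201, each with the median of 3. Members with 10 or more then numbered 1 (2.22%, all genes 6.06%) and 2 (4.44%, all genes 8.54%). Leaving out a replicate gave 228 to 355 peaks, medians of 4 to 6 and 5 to 11 members with 10 or more. The higher values came without replicate 1, where 24.4% of members and 22.9% of all genes had 10 or more. Without replicate 2 the share was 11.1% of members and 11.1% of all genes. Assignment within 1000 kb, added after seeing the data, gave 379 peaks, a median of 5 and 11 members (24.4%, all genes 12.6%). The 50% overlap moved no value by over 1.5 times. No paired analysis was possible because there was 1 group. The read depth is unknown, so a promoter without a peak is one where none was called at this depth.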
